A study of Mus musculus with 18 samples.

Results

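The last days of fat cell maturation in culture were examined in 6 of the 18 libraries of the series, the 3 labelled Day8 and the 3 labelled Day4, with the 3 Day6 libraries in between used to place changes in time. All 9 are polyadenylated RNA of mouse 3T3-L1 cells, a clonal fibroblast line that accumulates fat when induced, so they describe 1 line in a dish and not a fat depot. Cells left for 2 days past confluence in 10% fetal bovine serum received 10 µg/mL insulin, 0.25 µM dexamethasone, a synthetic glucocorticoid, and 0.5 mM IBMX, which slows the breakdown of cAMP, for 48 h. They were then kept in medium with 5 µg/mL insulin that was renewed every 2 days. Day8, Day6 and Day4 cells therefore share genotype, serum and inducers and differ in the time since the stimulus, 8, 6 and 4 days per the labels, and all follow the rounds of division (clonal expansion) that other libraries of the series cover. It is not stated whether those days count from the start or the end of the 48 h. Nothing says that replicates came from separate dishes, so p-values describe the spread among libraries, which may be technical.

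A maturing fat cell stores fatty acids as triglyceride in a droplet coated by perilipin and CIDE proteins, and releases them when adrenergic receptors raise cAMP and switch on the lipases ATGL and HSL. Insulin opposes release, brings the glucose carrier GLUT4 to the surface and drives the synthesis of new fat. PPARγ and C/EBPα maintain this programme once C/EBPβ and C/EBPδ, which respond to the inducers, have started it.

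Values are TPM, transcript abundances scaled to gene length and to a fixed library total, from which the depth of sequencing cannot be recovered. Genes reaching 1 TPM in 3 or more of the 6 Day8 and Day4 libraries were tested with limma on log2(TPM + 1), a scale that understates changes of genes with few TPM. Calls were made at an adjusted p under 0.05, and "rose" and "fell" are used of called genes and of Day8 relative to Day4 unless other days are named. Log2 fold changes are written as Day8 over Day4 with ± SE. That SE is limma's, with the spread estimated over all 18 libraries of the series and moderated across genes. TPM means carry ± SD over the 3 libraries of a group. Gene positions are those of the mm9 build as deposited, counted from 1. Replicates correlated across genes at r = 0.976 to 0.979 within Day8 and 0.978 to 0.985 within Day4, and Day8 with Day4 libraries at 0.935 to 0.948. On the main axis of variation (48% of the variance over these 9 libraries) the groups lay in the order Day4, Day6, Day8 without overlap.

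Of 25209 genes listed, 11871 passed the filter and 5594 of these (47.1%) differed between Day8 and Day4, 2917 higher (24.6%) and 2677 lower (22.6%). The changes were mostly small, with 569 genes higher and 329 lower by 1 or more on the log2 scale and a median over all genes of 0.02. Because about 1 gene in every 4 was called in each direction, the counts of a gene group below are to be read against those percentages. In 6100 genes (51.4%) the 3 Day8 values and the 3 Day4 values did not overlap. Wherever the values of both groups are given library by library below, the groups did not overlap, except for Mki67 and Pparg.

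**Figure D1:**
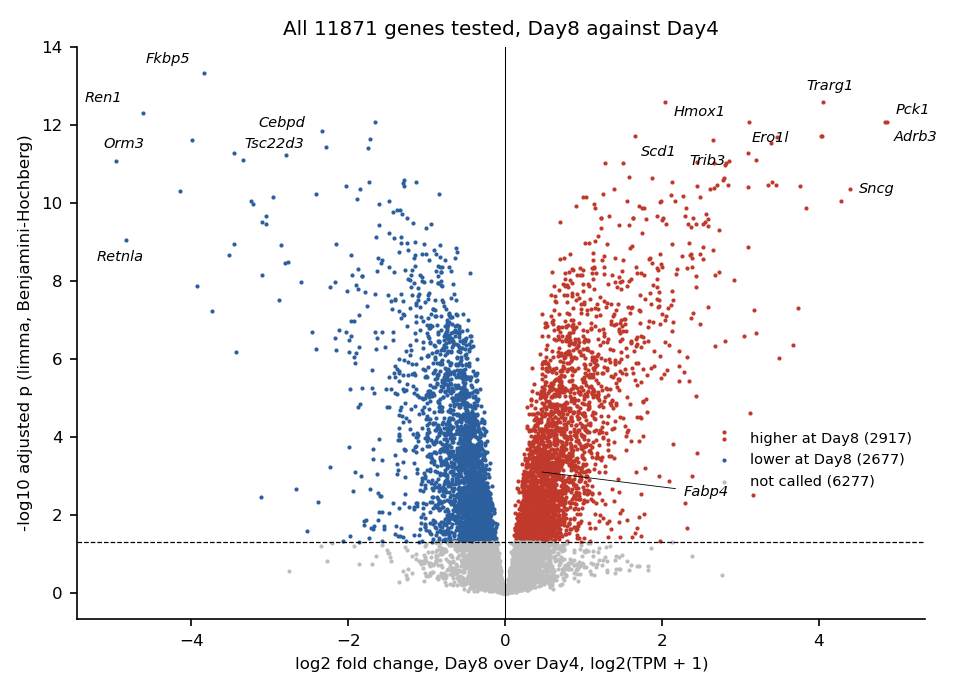
Log2 fold change of Day8 over Day4 (x axis, log2(TPM + 1)) against -log10 of the adjusted p (y axis) for the 11871 genes tested, with the dashed line at an adjusted p of 0.05. Pck1, Adrb3 and Trarg1 stand at the far right and Orm3, Ren1 and Fkbp5 at the far left, while Fabp4, the gene with the most TPM, changed by 0.42.

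The gene with the highest log2 fold change among those named by rule was Pck1 (chromosome 2, 172978574 to 172984775), the enzyme that makes phosphoenolpyruvate from oxaloacetate, a step by which fat cells can supply glycerol phosphate from sources other than glucose. Its Day8 libraries read 139, 101 and 86.6 TPM and its Day4 libraries 3.08, 2.84 and 2.19 TPM (log2 fold change 4.87, SE 0.14, adjusted p = 8.25e-13). Next came Adrb3 (chromosome 8, 28336248 to 28340060), the adrenergic receptor of the mature fat cell, with 106, 74.9 and 71.9 TPM at Day8 and 1.56, 1.8 and 2.45 TPM at Day4 (log2 fold change 4.85, SE 0.14, adjusted p = 8.25e-13). For these receptor and enzyme genes every Day8 library lay more than 20-fold above every Day4 library. Sncg, a synuclein abundant in fat cells, rose by 4.40 ± 0.19, the secreted phospholipase Pla2g2e by 4.28 ± 0.20, Trarg1, which helps to hold GLUT4 in its storage vesicles, by 4.05 ± 0.10, and Ero1l, which feeds oxidizing power into protein folding, by 4.04 ± 0.12. At the other end stood Orm3, an acute phase protein with close relatives (4.25 ± 1.26 TPM at Day8 and 160.0 ± 13.6 TPM at Day4, -4.96 ± 0.18). Retnla, a secreted protein of the resistin family, and Ren1, the protease renin, were both listed at 0 in the 3 Day8 libraries. At Day4 Retnla had 32, 23.7 and 27.6 TPM and Ren1 had 23.7, 23 and 24.2 TPM. Fam107a, which binds actin, fell by 4.14 ± 0.18. Ear1, a ribonuclease with near-identical copies between which reads may be split, read 2.61, 1.13 and 1.7 TPM at Day8 and 47.4, 44.3 and 32.6 TPM at Day4.

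Genes of fat release and its control had the largest median change of the lists examined. In the list of lipolysis and its control 13 of 15 genes tested rose and 1 fell (2 without Day8 replicate 2), with a median of 1.60, and the summed level of the list was 4060.0 to 4296 TPM at Day8 and 1760.0 to 1865 TPM at Day4. The receptors led. Beside Adrb3, Hcar2, a receptor for the ketone body beta-hydroxybutyrate that restrains lipolysis, read 52.8, 66.1 and 57.1 TPM at Day8 and 7.45, 9.8 and 6.84 TPM at Day4 (log2 fold change 2.73, SE 0.15, adjusted p = 4.96e-10). Pde3b, the phosphodiesterase through which insulin lowers cAMP, rose by 2.44 ± 0.10. The direction was thus shared by genes that promote release and genes that oppose it. Among enzymes that act on lipid stores Pnpla3 rose by 3.20 ± 0.12 and Ces1f, a carboxylesterase from a cluster of similar genes, by 2.85 ± 0.12. The main lipases changed less. Pnpla2 (chromosome 7, 148641087 to 148646642), which encodes ATGL, stood at 679, 698 and 661 TPM at Day8 and 523, 569.9 and 543 TPM at Day4 (log2 fold change 0.32, SE 0.06, adjusted p = 0.000748), and Lipe, which encodes HSL, at 400.0, 352 and 335 TPM at Day8 and 249, 244 and 220.4 TPM at Day4 (log2 fold change 0.60, SE 0.14, adjusted p = 0.00169).

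Most genes of fatty acid synthesis rose. Of 21 genes tested 16 rose and 1 fell, with a median of 0.79. Scd1 (chromosome 19, 44468940 to 44482199), which desaturates stearate, read 5621, 6513 and 5263 TPM at Day8 and 990.4, 1162 and 1022 TPM at Day4 (log2 fold change 2.45, SE 0.09, adjusted p = 8.82e-12), although it resembles Scd3 (higher by 1.60 ± 0.15) in sequence. Acly, which makes cytosolic acetyl-CoA, had 204, 197 and 162 TPM at Day8 and 82.8, 89.1 and 88.8 TPM at Day4 (log2 fold change 1.10, SE 0.10, adjusted p = 1.63e-07). Fasn, the synthase of palmitate, had 436, 463 and 350.4 TPM at Day8 and 235, 259.6 and 266 TPM at Day4 (log2 fold change 0.71, SE 0.13, adjusted p = 0.000263). The desaturases Fads3 and Fads1 rose by 1.50 ± 0.06 and 1.45 ± 0.07. The member that fell was Thrsp, a protein that promotes lipogenesis, with 207, 203 and 226 TPM at Day8 against 626, 671 and 643 TPM at Day4 (log2 fold change -1.61, SE 0.07, adjusted p = 1.05e-10).

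Triglyceride assembly was mixed. Of 18 genes tested 11 rose and 3 fell (median 0.24). Dgat1, which adds the last fatty acid, rose by 0.86 ± 0.06 and Lpin2, a phosphatidate phosphatase, by 0.88 ± 0.08, whereas the earlier acyltransferases Gpat4 and Agpat4 fell by 0.98 ± 0.07 and 1.30 ± 0.05. Dgat2, the other final acyltransferase, was not called at 496 ± 37.1 TPM at Day8 and 544 ± 24.8 TPM at Day4 (log2 fold change -0.14, SE 0.07, adjusted p = 0.117), though it was called lower without Day8 replicate 1 (-0.20). Uptake and binding of fatty acids split evenly, with 5 of 17 genes higher and 5 lower (median 0.03). Lpl (chromosome 8, 71404454 to 71430831), which frees fatty acids from lipoproteins, read 5348, 5994 and 5846 TPM at Day8 and 3137, 3423 and 3322 TPM at Day4 (log2 fold change 0.80, SE 0.07, adjusted p = 1.29e-07). The fatty acid transporter Cd36 read 317, 362 and 279 TPM at Day8 and 170.4, 176 and 131 TPM at Day4 (log2 fold change 1.004, SE 0.11, adjusted p = 2.78e-06). Fabp4 (chromosome 3, 10204343 to 10208616), the fatty acid carrier with the most TPM of any gene in all 9 libraries, read 15910, 14160 and 16810 TPM at Day8 and 11810, 11970 and 11220 TPM at Day4 (log2 fold change 0.42, SE 0.09, adjusted p = 0.00076). Since it ranked first in every library, quantile normalization made it equal in both groups. Slc27a1, an acyl-CoA synthetase that promotes uptake, fell to 14.2, 13 and 8.04 TPM at Day8 against 35.7, 38.6 and 35.3 TPM at Day4 (log2 fold change -1.59, SE 0.39, adjusted p = 0.00325), a call that ended with a pseudocount of 0.1 (-1.67).

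Droplet proteins diverged. Of 14 tested 6 rose and 4 fell. Plin1 (chromosome 7, 86866050 to 86877662), the perilipin that guards the droplet surface, read 606, 518 and 587 TPM at Day8 and 218, 223 and 245 TPM at Day4 (log2 fold change 1.31, SE 0.18, adjusted p = 2.87e-05), and Plin4 rose by 0.83 ± 0.14. Cidec, which fuses droplets into larger ones, fell to 906, 797 and 835 TPM at Day8 against 1506, 1290 and 1242 TPM at Day4 (log2 fold change -0.67, SE 0.16, adjusted p = 0.00306), a call that ended with a pseudocount of 0.1 (-0.67). Its relative Cidea was listed at 0 in the 3 Day4 libraries and read 4.91, 1.89 and 2.53 TPM at Day8. Hsd17b11, a droplet-associated dehydrogenase, fell by 0.78 ± 0.09.

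Most sterol genes rose. In cholesterol synthesis 15 of 22 genes rose and 3 fell (median 0.53), led by Sqle, which oxidizes squalene, with 388, 385 and 351 TPM at Day8 and 118, 117 and 120.1 TPM at Day4 (log2 fold change 1.65, SE 0.05, adjusted p = 1.84e-12). Sc5d and Tm7sf2, later steps of the pathway, rose by 1.26 ± 0.12 and 0.94 ± 0.09, while Cyp51, a demethylase between squalene and these steps, fell by 1.01 ± 0.05. Of 9 genes of cholesterol efflux and storage 7 rose and 1 fell. The exporter Abcg1 read 20.8, 20.9 and 19.2 TPM at Day8 and 3.68, 4.36 and 3.54 TPM at Day4 (log2 fold change 2.13, SE 0.12, adjusted p = 1.1e-09). The lipoprotein receptor Scarb1 rose by 1.09 ± 0.11. The lysosomal sterol carrier Npc2 was the member that fell (by 0.54 ± 0.04).

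Many genes of glucose entry, breakdown and storage rose. Of 20 genes of insulin signalling and glucose uptake 12 rose and 4 fell (median 0.57). Slc2a4 (chromosome 11, 69755788 to 69761692), which encodes GLUT4, read 160.5, 170.3 and 164 TPM at Day8 and 28.2, 34.4 and 31.8 TPM at Day4 (log2 fold change 2.36, SE 0.14, adjusted p = 2.11e-09). Slc2a1, the basal carrier, read 206, 208 and 202 TPM at Day8 and 80.5, 86.8 and 85 TPM at Day4 (log2 fold change 1.28, SE 0.05, adjusted p = 9.14e-12). The adaptor proteins of the insulin receptor rose, Irs1 by 0.76 ± 0.12 and Irs2 by 0.63 ± 0.10, as did Grb14, which inhibits that receptor (by 1.01 ± 0.11). Pik3r1, the regulatory subunit of PI3-kinase, fell by 1.07 ± 0.11. The receptor Insr was not called (21.8, 21.9 and 29.6 TPM at Day8 and 14.9, 16.1 and 19.3 TPM at Day4, log2 fold change 0.51, SE 0.22, adjusted p = 0.0671), though a fit on the 6 libraries alone called it higher (0.51).

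In glycolysis 16 of 19 genes rose and 0 fell (median 0.88). Pfkp, an isoform of the committing enzyme, read 118, 124 and 106 TPM at Day8 and 31.8, 30.7 and 37.6 TPM at Day4 (log2 fold change 1.77, SE 0.08, adjusted p = 1.34e-10), and Gpi1, Pgam1 and Pgk1 rose by 1.30 ± 0.07, 1.22 ± 0.07 and 1.19 ± 0.07. Gapdh, a gene with many processed copies in the mouse genome, rose by 1.47 ± 0.10. For glycogen metabolism 10 of 14 genes rose and 0 fell (1 without Day8 replicate 2), with a median of 0.76. Stbd1, which anchors glycogen to membranes, read 22.1, 23.4 and 25.6 TPM at Day8 and 2.06, 1.19 and 1.1 TPM at Day4 (log2 fold change 3.35, SE 0.14, adjusted p = 3.44e-11). The branching enzyme Gbe1 rose by 2.27 ± 0.10 and the synthase Gys1 by 0.93 ± 0.09. The pentose pathway and NADPH supply showed no common direction (3 of 10 higher and 3 lower), with malic enzyme Me1 up by 1.02 ± 0.06 and Pgd, of the oxidative branch, down by 0.21 ± 0.06.

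**Figure D2:**
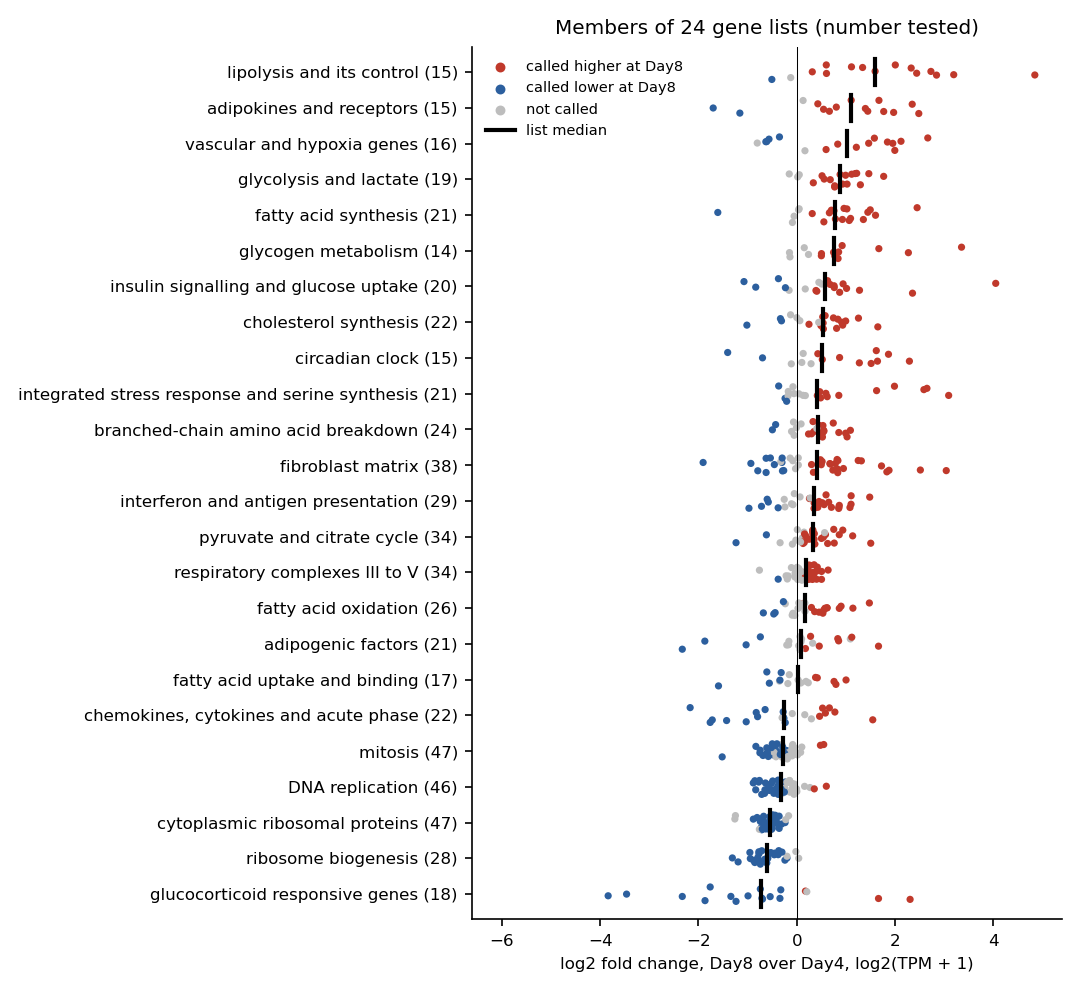
Log2 fold change of Day8 over Day4 (x axis, log2(TPM + 1)) for each tested member of 24 gene lists, with red points called higher, blue points called lower, grey points not called, and a black bar at the list median. The medians run down to -0.60 for ribosome biogenesis and -0.72 for glucocorticoid responsive genes and up to 1.60 for lipolysis, while all genes tested had a median of 0.02.

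The lists of mitochondrial genes had small median changes, though some single genes moved more. In the pyruvate and citrate cycle list 24 of 34 rose and 2 fell (median 0.32). The kinases that block pyruvate entry went different ways, Pdk1 up by 1.51 ± 0.09 and Pdk3 by 0.87 ± 0.07, and Pdk4 down to 10.6, 14.7 and 11.4 TPM at Day8 against 31.3, 28.8 and 29.7 TPM at Day4 (log2 fold change -1.24, SE 0.14, adjusted p = 2.55e-06). Slc25a10, the mitochondrial dicarboxylate carrier, rose by 1.14 ± 0.05. In fatty acid oxidation 13 of 26 rose and 4 fell (median 0.17), with Acot2, a mitochondrial thioesterase, up by 1.48 ± 0.11 and Acadm, the medium-chain dehydrogenase, down by 0.68 ± 0.06. Respiratory complex I had 15 of 37 subunits or assembly genes higher and 1 lower (2 without Day8 replicate 2) with a median of 0.15, and complexes III to V 18 of 34 higher and 1 lower with a median of 0.18. Leaving out Day8 replicate 2 or 3 or Day4 replicate 3 gave 2 lower in complexes III to V, and leaving out Day4 replicate 2 gave 0. Ndufv1 of complex I rose by 0.55 ± 0.06 and Cyc1 of complex III by 0.51 ± 0.05. The list of complexes III to V does not hold the cytochrome oxidase isoforms Cox7a1, Cox8b and Cox6a2, which rose more and are given below. Branched-chain amino acid breakdown, a source of acetyl-CoA and propionyl-CoA in fat cells, had 16 of 24 genes higher and 2 lower (median 0.42), with Dbt, of the branched-chain keto acid dehydrogenase, up by 1.09 ± 0.13 and Pccb by 1.02 ± 0.12.

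Few markers of brown and beige fat passed the filter. Of 25 listed 8 were tested, 5 rose and 2 fell (1 without any 1 of Day8 replicates 1 and 2 and Day4 replicates 1, 2 and 3), and 9 were listed at 0 in all 9 libraries, among them Ucp1, the uncoupling protein that defines heat-producing fat. Pmvk, of cholesterol synthesis, and Ccnd3, cyclin D3, which cells in general use, were also listed at 0 in all 9 libraries, so a listed 0 does not show that a gene was silent. Cox7a1, a muscle and brown fat isoform of a cytochrome oxidase subunit, read 232, 224 and 272 TPM at Day8 and 20.2, 20.5 and 14.3 TPM at Day4 (log2 fold change 3.67, SE 0.34, adjusted p = 4.26e-07). Another such isoform, Cox8b, read 198, 142 and 219.8 TPM at Day8 and 14.9, 18.5 and 16.2 TPM at Day4 (log2 fold change 3.40, SE 0.14, adjusted p = 2.78e-11), and Cox6a2, a muscle isoform outside the list, 17.3, 19.6 and 23 TPM at Day8 and 0, 1.18 and 1.9 TPM at Day4 (log2 fold change 3.49, SE 0.36, adjusted p = 9.4e-07). Tbx15, a developmental factor, fell by 1.03 ± 0.08. Ppargc1a, a coactivator of mitochondrial genes, read 8.57, 6.1 and 7.87 TPM at Day8 and 4.64, 3.32 and 3.19 TPM at Day4 (log2 fold change 0.85, SE 0.15, adjusted p = 0.000254).

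Most genes of secreted fat cell products rose. In the list of adipokines and receptors 12 of 15 genes rose and 2 fell (median 1.11). Adipoq (chromosome 16, 23146609 to 23158041), adiponectin, read 3518, 3637 and 3626 TPM at Day8 and 1304, 1419 and 1369 TPM at Day4 (log2 fold change 1.40, SE 0.15, adjusted p = 2.46e-06). Cfd, the complement protease adipsin, read 3210, 2606 and 3157 TPM at Day8 and 724, 798 and 753 TPM at Day4 (log2 fold change 1.97, SE 0.12, adjusted p = 2.04e-09). Lep, leptin, was low, at 6.49, 5.09 and 4.06 TPM at Day8 and 0, 0.199 and 0.0957 TPM at Day4 (log2 fold change 2.48, SE 0.15, adjusted p = 2.04e-09, and 4.86 with a pseudocount of 0.1). The chemoattractant Rarres2 rose by 1.77 ± 0.17 and the vasodilator peptide Adm by 2.35 ± 0.27. Agt (chromosome 8, 127080487 to 127093606), angiotensinogen, the substrate of renin, fell to 391, 420.5 and 463 TPM at Day8 against 1323, 1418 and 1399 TPM at Day4 (log2 fold change -1.70, SE 0.18, adjusted p = 1.93e-06), in the same direction as Ren1. Among ligands of the TGF-beta family Inhbb, a subunit of activin B, read 65.4, 53.6 and 46.9 TPM at Day8 and 2.31, 2.37 and 2.64 TPM at Day4 (log2 fold change 4.02, SE 0.13, adjusted p = 1.84e-12), and Fst, follistatin, which binds and blocks activins, 18.4, 15.2 and 15.7 TPM at Day8 and 84.3, 78 and 79.3 TPM at Day4 (log2 fold change -2.23, SE 0.16, adjusted p = 1.44e-08). The wider list of Wnt and BMP or TGF-beta signalling had 8 of 25 genes higher and 10 lower. Of 8 IGF ligands and binding proteins 3 rose and 2 fell, Igf2 reading 6.82, 7.95 and 6.89 TPM at Day8 and 1.1, 0.945 and 0.917 TPM at Day4 (log2 fold change 2.05, SE 0.17, adjusted p = 7.85e-08).

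The transcription factors that steer adipogenesis did not share a direction. Of 21 tested 7 rose and 4 fell (median 0.09). Cebpa (chromosome 7, 35904312 to 35906947), C/EBPα, read 488, 298 and 429 TPM at Day8 and 188, 161 and 198 TPM at Day4 (log2 fold change 1.12, SE 0.15, adjusted p = 2.25e-05), and Klf15, a factor that can induce GLUT4, 60.1, 68.8 and 65.2 TPM at Day8 and 21.3, 19.5 and 18.4 TPM at Day4 (log2 fold change 1.67, SE 0.15, adjusted p = 2.99e-07). Cebpd (chromosome 16, 15887379 to 15889638), C/EBPδ, fell to 48.2, 41.4 and 44.1 TPM at Day8 against 235, 222 and 225 TPM at Day4 (log2 fold change -2.33, SE 0.07, adjusted p = 1.41e-12). Klf5, which acts early, fell by 1.87 ± 0.14 and Rxra, the partner of PPARγ, by 1.03 ± 0.07. Cebpb was not called at 498 ± 75.1 TPM at Day8 and 558 ± 96.8 TPM at Day4 (adjusted p = 0.444). Pparg was not called either, and its libraries disagreed within groups, with 37.3, 40.0 and 19.5 TPM at Day4, 31.4, 49.2 and 174 TPM at Day6 and 35.4, 184 and 45.2 TPM at Day8 (Day8 over Day4 log2 fold change 1.09, SE 0.62, adjusted p = 0.165). Inhibitors of adipogenesis were split with 9 of 22 higher and 8 lower, Ddit3 (C/EBP homologous protein) up by 2.65 ± 0.09, and Twist2, Pdgfra and Sox9, which precursor cells express, down by 1.42 ± 0.08, 1.11 ± 0.18 and 1.10 ± 0.08. Of 12 preadipocyte markers 4 rose and 6 fell. S100a4 stood at 495 ± 58.4 TPM at Day8 and 1652 ± 89.4 TPM at Day4. Dlk1, the inhibitor Pref-1 and a standard preadipocyte marker, was higher at Day8, with 50.1, 20.9 and 12 TPM at Day8 and 0, 9.09 and 10.5 TPM at Day4 (log2 fold change 2.32, SE 0.76, adjusted p = 0.0211). That call was lost without Day4 replicate 1 (1.18), without Day8 replicate 1 (1.79), with array weights (2.11) and in a fit on the 6 libraries alone (2.32).

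Most genes that respond to glucocorticoids fell, 14 of 18 lower and 3 higher, and their median was the lowest of the lists examined (-0.72). The medium with dexamethasone had been replaced after 48 h in all groups, so time since that change cannot be told apart from maturation. An effect of it on these genes was not tested. Fkbp5 (chromosome 17, 28535698 to 28623094), a chaperone that restrains the glucocorticoid receptor, read 35.4, 38.9 and 39.9 TPM at Day8 and 542, 553 and 576 TPM at Day4 (log2 fold change -3.84, SE 0.08, adjusted p = 4.55e-14). Tsc22d3, an anti-inflammatory mediator known as GILZ, read 33.4, 30.9 and 37.8 TPM at Day8 and 375, 381 and 396 TPM at Day4 (log2 fold change -3.46, SE 0.12, adjusted p = 5e-12). In both genes each Day4 library lay at least 9-fold above each Day8 library. Sult1a1, a sulfotransferase, fell by 1.87 ± 0.15. Hsd11b1, which regenerates active glucocorticoid inside cells, went the other way, with 501, 522 and 528 TPM at Day8 and 102, 100.1 and 109 TPM at Day4 (log2 fold change 2.31, SE 0.11, adjusted p = 1.32e-10). The list of cAMP responsive and immediate early genes had 7 of 17 higher and 2 lower (0 lower without any 1 of Day8 replicates 2 and 3 and Day4 replicates 2 and 3), with the survival gene Ier3 up by 2.70 ± 0.11, Atf3, a stress factor, by 2.68 ± 0.18 and Fosl1, an AP-1 subunit, by 1.20 ± 0.11.

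**Figure D3:**
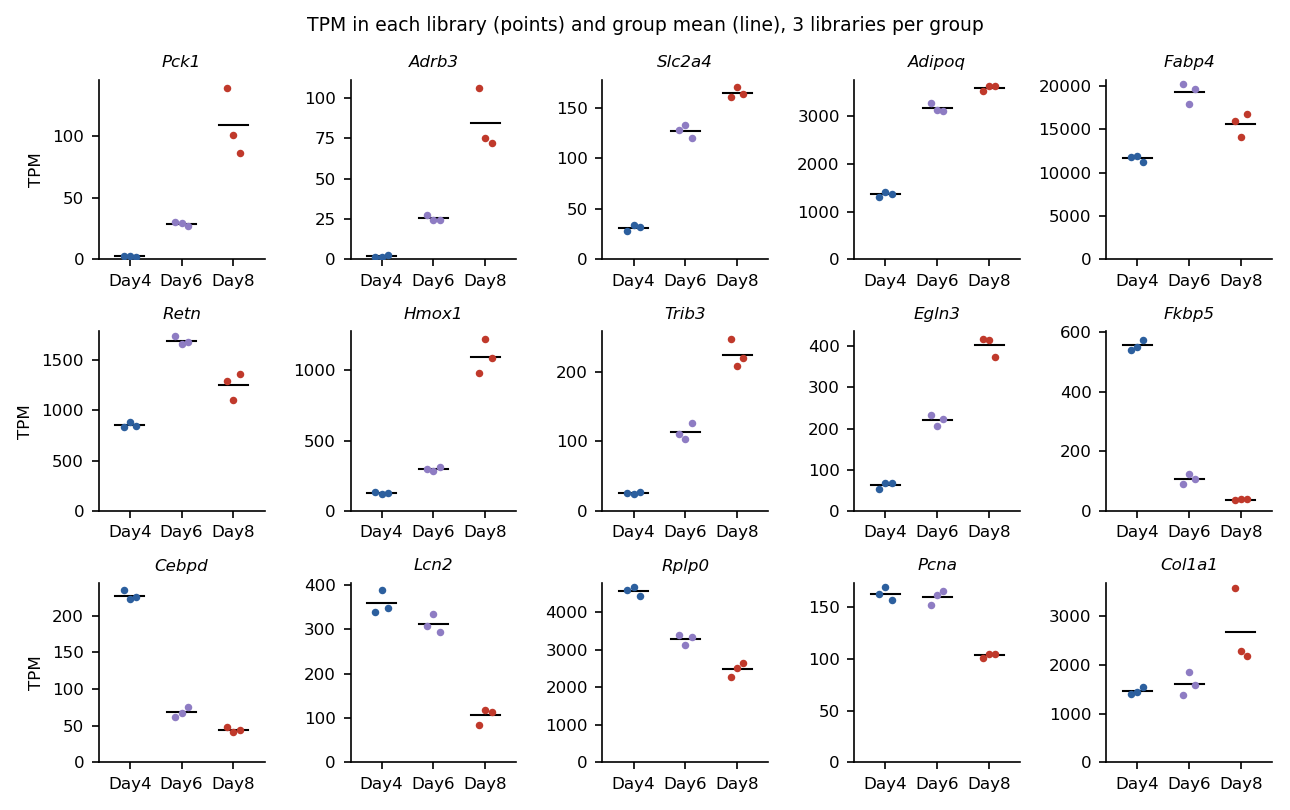
TPM (y axis, from 0) of 15 genes in each of the 3 libraries (points) at Day4, Day6 and Day8 (x axis), with a line at the group mean. Pck1, Hmox1 and Egln3 climbed to Day8, Fkbp5 and Cebpd had dropped at Day6, Fabp4 and Retn were highest at Day6, and Pcna lay at 163 TPM at Day4, 160 TPM at Day6 and 104 TPM at Day8.

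Many genes that respond to low oxygen rose. Cells degrade the HIF factors through prolyl hydroxylases when oxygen is ample, and HIF, when stable, binds DNA at sites with the core ACGTG. In the list of vascular and hypoxia genes 10 of 16 tested rose and 4 fell (median 1.02). Egln3, a HIF prolyl hydroxylase that HIF itself induces, read 417, 416 and 373 TPM at Day8 and 53.8, 67.4 and 66.8 TPM at Day4 (log2 fold change 2.67, SE 0.11, adjusted p = 4.1e-11). Its relative Egln1 read 234, 209 and 228 TPM at Day8 and 55.6, 46.7 and 49.7 TPM at Day4 (log2 fold change 2.12, SE 0.09, adjusted p = 2.87e-11). The mitophagy gene Bnip3 read 1087, 1139 and 1130 TPM at Day8 and 257, 284 and 299 TPM at Day4 (log2 fold change 2.00, SE 0.13, adjusted p = 4.4e-09), and Ankrd37, a small ankyrin protein, 61.5, 57.6 and 66.9 TPM at Day8 and 15, 16.1 and 14.6 TPM at Day4 (log2 fold change 1.96, SE 0.15, adjusted p = 4.47e-08). The members that fell were ligands of blood and lymph vessels, Vegfc by 0.61 ± 0.11, Vegfd by 0.56 ± 0.10, Angpt1 by 0.63 ± 0.12 and Angpt2 by 0.35 ± 0.12, named after their values were seen, whereas Vegfa rose by 1.47 ± 0.12. Car9, a carbonic anhydrase outside that list, was low at Day4, with 21.5, 20.0 and 15.1 TPM at Day8 and 0.479, 0.356 and 0.546 TPM at Day4 (log2 fold change 3.75, SE 0.16, adjusted p = 3.55e-11).

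The promoters of 3 of these risers are shown because they hold that core. The windows run from 250 bases before to 50 after the gene start, are taken from RefSeq on the GRCm38.p6 build, and are written along the gene's strand with every ACGTG on either strand in capitals. In Bnip3 the capitals are CACGTG, in which the matches on both strands overlap.
Egln3 (chr12:54203825-54204124, minus strand): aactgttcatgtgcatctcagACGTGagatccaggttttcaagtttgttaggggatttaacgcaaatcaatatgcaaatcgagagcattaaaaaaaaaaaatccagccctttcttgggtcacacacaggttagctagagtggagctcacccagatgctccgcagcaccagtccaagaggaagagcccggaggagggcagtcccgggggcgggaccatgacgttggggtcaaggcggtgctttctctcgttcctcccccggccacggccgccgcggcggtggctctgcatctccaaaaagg
Bnip3 (chr7:138909457-138909756, minus strand): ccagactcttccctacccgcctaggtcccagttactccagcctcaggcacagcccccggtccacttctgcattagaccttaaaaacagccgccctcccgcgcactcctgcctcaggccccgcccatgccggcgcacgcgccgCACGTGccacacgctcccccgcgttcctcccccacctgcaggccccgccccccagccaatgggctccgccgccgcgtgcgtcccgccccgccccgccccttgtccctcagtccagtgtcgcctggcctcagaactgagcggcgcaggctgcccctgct
Ankrd37 (chr8:45999801-46000100, minus strand): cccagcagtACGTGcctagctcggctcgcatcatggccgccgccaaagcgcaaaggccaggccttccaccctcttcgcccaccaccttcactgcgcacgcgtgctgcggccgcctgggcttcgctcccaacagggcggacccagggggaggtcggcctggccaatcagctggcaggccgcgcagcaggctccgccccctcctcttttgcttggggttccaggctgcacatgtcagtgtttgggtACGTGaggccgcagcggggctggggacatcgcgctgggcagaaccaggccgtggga
Of the 12 tested members of the list with such a window, 8 (66.7%) held the core, Ankrd37, Bnip3, Egln1, Egln3, Hif1a, P4ha1, P4ha2 and Vegfa, against 29.1% of the 9276 tested genes with a window and 19.6% of all 32851 windows. A match of 5 letters is a description of these windows and does not show that a factor bound there. The list was written from general knowledge, which takes in known HIF targets, and with earlier results of these data known. Its share is therefore no test of HIF.

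Stress responses that slow translation rose in part. The integrated stress response acts through the factor ATF4, which binds with C/EBP proteins at sites that include TGATGNAA. In that list, with serine synthesis, 11 of 21 genes rose and 3 fell (1 without Day8 replicate 3 or without Day4 replicate 2), with a median of 0.42. Trib3 (chromosome 2, 152163161 to 152169796), a pseudokinase that binds AKT, read 246, 208 and 219 TPM at Day8 and 25.6, 23.9 and 26.6 TPM at Day4 (log2 fold change 3.09, SE 0.11, adjusted p = 5e-12). Ddit3, the factor CHOP, read 565, 654 and 628 TPM at Day8 and 102, 99.1 and 90.2 TPM at Day4 (log2 fold change 2.65, SE 0.09, adjusted p = 2.38e-12). Chac1, which degrades glutathione, rose by 1.99 ± 0.09, the folate enzyme Aldh1l2 by 2.59 ± 0.14 and Ppp1r15a, which restores translation, by 1.63 ± 0.08. Of 17 tested members with a promoter window 4 (23.5%) held TGATGNAA on either strand, Asns, Chac1, Slc7a11 and Trib3, against 2.39% of tested genes with a window and 3.97% of all windows. The windows of the strongest risers with a match follow, in the same build, with the match in capitals, which lies on the other strand in both.
Trib3 (chr2:152344011-152344310, minus strand): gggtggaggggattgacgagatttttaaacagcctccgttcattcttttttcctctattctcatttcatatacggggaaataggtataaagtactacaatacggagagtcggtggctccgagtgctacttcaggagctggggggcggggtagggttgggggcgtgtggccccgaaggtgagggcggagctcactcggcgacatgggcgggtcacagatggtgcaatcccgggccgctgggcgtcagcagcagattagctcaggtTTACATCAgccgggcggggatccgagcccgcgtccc
Chac1 (chr2:119350992-119351291, plus strand): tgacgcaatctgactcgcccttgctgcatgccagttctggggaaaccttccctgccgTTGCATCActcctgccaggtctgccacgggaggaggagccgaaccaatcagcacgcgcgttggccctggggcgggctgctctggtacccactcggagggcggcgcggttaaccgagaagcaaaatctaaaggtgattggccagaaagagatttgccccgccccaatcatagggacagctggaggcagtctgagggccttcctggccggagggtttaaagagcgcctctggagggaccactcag
No match lay in the windows of Ddit3 and Ppp1r15a. This list too was written from general knowledge, which takes in known ATF4 targets, so its share is no test of ATF4.

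Of 23 genes of the unfolded protein response 11 rose and 4 fell (median 0.20). Ero1l stood apart, with 1441, 1687 and 1444 TPM at Day8 and 89.4, 86.2 and 98.2 TPM at Day4. Edem1, which marks misfolded proteins for disposal, rose by 1.11 ± 0.07 and the chaperone Hspa5 by 0.69 ± 0.04. Hmox1 (chromosome 8, 77617517 to 77624492), which breaks down heme, read 979, 1222 and 1088 TPM at Day8 and 133, 120.2 and 125 TPM at Day4 (log2 fold change 3.11, SE 0.09, adjusted p = 8.25e-13). Other antioxidant and glutathione genes were divided, 11 of 26 higher (Hmox1 included) and 11 lower, with the glutathione synthesis subunit Gclm up by 1.14 ± 0.06, the extracellular dismutase Sod3 up by 1.15 ± 0.08, Gsta3 down by 1.79 ± 0.13 and the peroxidase Gpx1 down by 0.96 ± 0.08. Heat shock proteins had 7 of 18 higher and 5 lower. Lysosome and autophagy genes had 14 of 25 higher and 6 lower, with Map1lc3a, an autophagosome protein, up by 1.12 ± 0.07 and the acid lipase Lipa up by 0.82 ± 0.08.

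Most genes of the translation machinery fell. Of 47 cytoplasmic ribosomal protein genes 42 fell and 0 rose (median -0.53), against 22.6% of all genes lower, and of 28 ribosome biogenesis genes 25 fell and 0 rose (median -0.60). These counts were the same under median-ratio scaling and quantile normalization. Rplp0 (chromosome 5, 116009476 to 116013738), a stalk protein of the large subunit, read 2259, 2520 and 2634 TPM at Day8 and 4580, 4651 and 4422 TPM at Day4 (log2 fold change -0.88, SE 0.05, adjusted p = 2.06e-09). Rps9 fell by 0.81 ± 0.06 and Rplp1 by 0.74 ± 0.08, though many ribosomal protein genes have processed copies between which reads may be split. Among biogenesis genes the box C/D protein Nop56 read 32.7, 64.6 and 64.5 TPM at Day8 and 148, 118 and 123 TPM at Day4 (log2 fold change -1.31, SE 0.18, adjusted p = 2.89e-05), and Polr1b, a subunit of RNA polymerase I, 7.59, 9.47 and 9.33 TPM at Day8 and 17.4, 17.8 and 18.6 TPM at Day4 (log2 fold change -0.95, SE 0.09, adjusted p = 3.87e-07). Myc, a driver of ribosome synthesis, fell to 13.8, 14.9 and 17.3 TPM at Day8 against 21.1, 38.3 and 34.7 TPM at Day4 (log2 fold change -0.95, SE 0.27, adjusted p = 0.00856).

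Many replication and mitosis genes were lower at Day8 than at Day4, and part of them had first been higher at Day6. Between Day8 and Day4, 27 of 46 replication genes fell and 2 rose (median -0.32), and 23 of 47 mitosis genes fell and 2 rose (median -0.29). From Day4 to Day6, 12 replication genes rose and 0 fell, and 22 mitosis genes rose and 0 fell, against 15.3% of all genes higher and 12.1% lower. From Day6 to Day8, 34 replication genes and 34 mitosis genes fell and 0 rose in either list, against 12.2% of all genes lower and 11.0% higher. The summed level of the mitosis list was 734 to 744 TPM at Day4, 883 to 910 TPM at Day6 and 572 to 588 TPM at Day8. In bulk RNA fewer dividing cells and less RNA of these genes per cell cannot be told apart.

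Mki67 rose and fell over the 3 stages, while Pcna fell after Day6. Mki67 (chromosome 7, 142881471 to 142908062), a protein of dividing cells, read 9.22, 7.56 and 9.91 TPM at Day4, 14.3, 17.6 and 13.6 TPM at Day6 and 5.01, 7.6 and 6.38 TPM at Day8. Its rise to Day6 was 0.70 ± 0.14 and its fall from Day6 to Day8 -1.15 ± 0.14. The difference between Day8 and Day4 (-0.44, adjusted p = 0.0153) was not called without Day8 replicate 1 (-0.30), without Day4 replicate 3 (-0.37) or in a fit on the 6 libraries alone (-0.44). Pcna (chromosome 2, 132075022 to 132078916), which holds DNA polymerases on their template, read 163, 169.9 and 156 TPM at Day4, 152, 162 and 165 TPM at Day6 and 101, 105 and 105 TPM at Day8, so that its fall (-0.65 ± 0.05 between Day8 and Day4) lay in the second step. Rrm2, which makes deoxynucleotides, fell by 0.88 ± 0.07 between Day8 and Day4, the helicase subunit Mcm6 by 0.85 ± 0.05, the mitotic kinase Plk1 by 0.83 ± 0.05 and Birc5, survivin, by 1.52 ± 0.18. Cyclin D1 (Ccnd1) fell to 36.8, 27 and 27.1 TPM at Day8 against 56.7, 53.7 and 59.2 TPM at Day4 (log2 fold change -0.89, SE 0.09, adjusted p = 9.91e-07). The regulators as a list were divided, 11 of 32 higher and 9 lower, with Gadd45a, induced by damage and stress, up by 2.16 ± 0.10 and the retinoblastoma gene Rb1 up by 1.11 ± 0.12. Cdkn1a, the cyclin-dependent kinase inhibitor p21, read 0, 0.536 and 0 TPM at Day8 and 9.01, 1.58 and 10.4 TPM at Day4 (log2 fold change -2.53, SE 0.86, adjusted p = 0.025). Leaving out 1 library ended that call for 4 of the 6 libraries, namely Day8 replicates 1 and 3 (-2.43 each), Day4 replicate 1 (-2.23) and Day4 replicate 3 (-2.14). Array weights ended it too (-2.58), and a pseudocount of 0.1 gave -4.88.

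**Figure D4:**
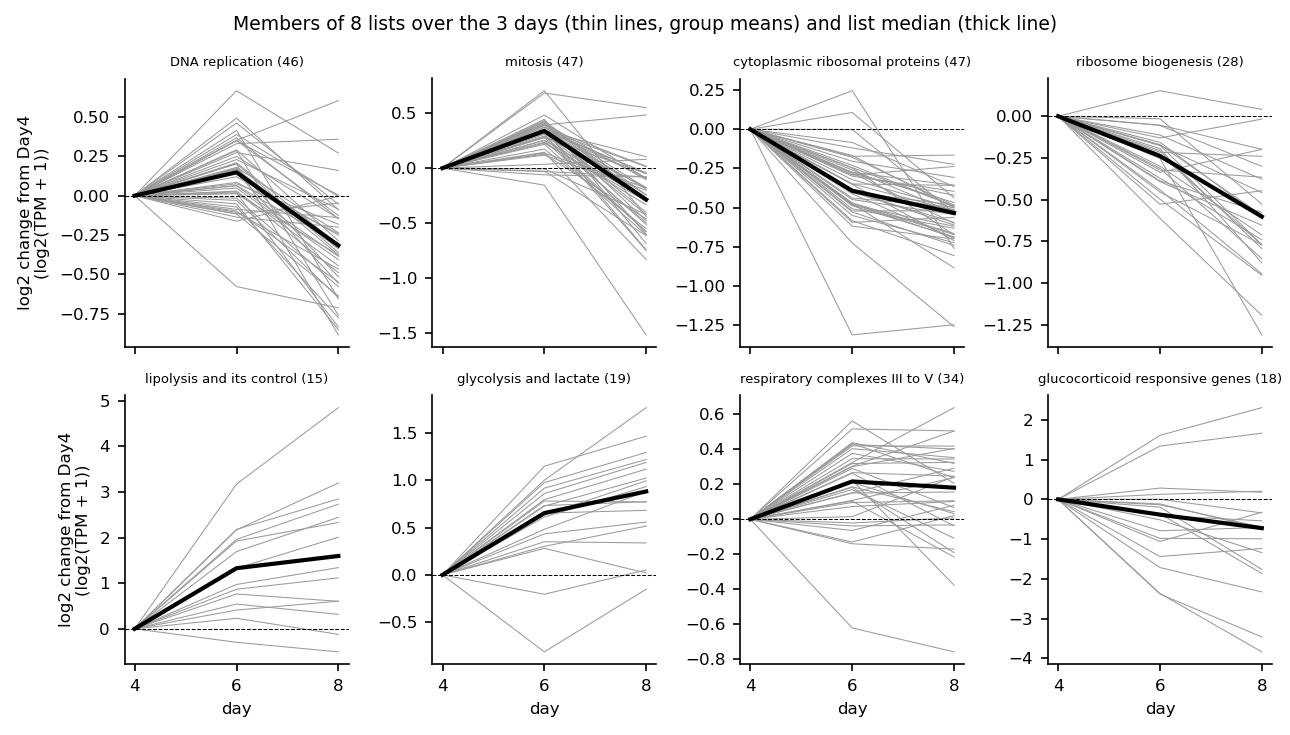
Log2 change from the Day4 mean (y axis, log2(TPM + 1)) over days 4, 6 and 8 (x axis) for the tested members of 8 lists (thin lines) and the list median (thick line). The medians of replication and mitosis stand at 0.15 and 0.34 at Day6 and at -0.32 and -0.29 at Day8, while ribosomal proteins stand at -0.39 and -0.53.

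Matrix genes rose more often than they fell. Of 38 fibroblast matrix genes 21 rose and 11 fell (median 0.41), and of 18 basement membrane genes 8 rose and 0 fell (median 0.31). Col1a1 (chromosome 11, 94797538 to 94814356), a fibrillar collagen chain, read 3569, 2289 and 2186 TPM at Day8 and 1400, 1446 and 1540 TPM at Day4 (log2 fold change 0.84, SE 0.14, adjusted p = 0.000177), and Col3a1 5873, 4434 and 4186 TPM at Day8 and 2606, 2644 and 2860 TPM at Day4 (log2 fold change 0.82, SE 0.10, adjusted p = 8.62e-06). Mfap4 and Fbn1, of elastic microfibrils, rose by 3.04 ± 0.28 and 1.83 ± 0.15, the proteoglycan Lum by 1.88 ± 0.12 and Fn1, fibronectin, by 0.83 ± 0.16. Ccn1, a matricellular protein, fell by 1.91 ± 0.13. Col15a1, a collagen at the basement membrane zone, read 183, 173 and 145 TPM at Day8 and 21.5, 21.9 and 25 TPM at Day4 (log2 fold change 2.82, SE 0.10, adjusted p = 9.14e-12), while Col4a1 was not called (1300 ± 180.4 TPM at Day8 and 1342 ± 91.2 TPM at Day4). Proteases and their inhibitors split, 8 of 23 higher and 11 lower, with Mmp11 up by 1.94 ± 0.10 and Adamts1 and Adamts12 down by 1.42 ± 0.09 and 1.40 ± 0.16. Contractile and cytoskeletal genes fell more often than they rose, 12 of 26 lower and 5 higher (2 without Day8 replicate 2 and 3 without Day4 replicate 1), with Vim, vimentin, down by 0.62 ± 0.04. Acta2, smooth muscle actin, rose but stayed low, at 18.1, 15.3 and 13.3 TPM at Day8 and 5.3, 4.8 and 3.97 TPM at Day4 (log2 fold change 1.54, SE 0.15, adjusted p = 5.25e-07).

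A mixed list of chemokine, cytokine and acute phase genes held more genes that fell than rose. Interferon genes rose more often than they fell. In the list of chemokines, cytokines and acute phase genes 12 of 22 fell and 6 rose (median -0.27). Lcn2 (chromosome 2, 32240157 to 32243259), a siderophore-binding protein, read 84.7, 119 and 114 TPM at Day8 and 339, 389 and 347 TPM at Day4 (log2 fold change -1.76, SE 0.14, adjusted p = 4.24e-08), and Saa3, serum amyloid A3, 8.9, 5.13 and 4.01 TPM at Day8 and 32.3, 27.8 and 27.9 TPM at Day4 (log2 fold change -2.17, SE 0.20, adjusted p = 2.8e-07). Nfkbia, the inhibitor of NF-κB, fell by 1.43 ± 0.07, whereas Cxcl5, which attracts neutrophils, rose by 1.55 ± 0.20. The chemokine Ccl2 also rose, by 0.53, so the direction of the mixed list does not stand for its chemokines. Of 29 interferon and antigen presentation genes 17 rose and 5 fell (median 0.36), the class I heavy chain H2-K1 by 1.08 ± 0.08, though it has close relatives, and Ifit3, an interferon-induced protein, by 1.49 ± 0.17 (8.16 ± 0.308 TPM at Day8 and 2.31 ± 0.641 TPM at Day4). Complement genes showed no common direction (4 of 10 higher, Cfd among them, and 4 lower).

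Clock genes rose more often than they fell. The clock is a loop in which BMAL1 and CLOCK switch on their own repressors and PAR-domain factors through CACGTG elements. Of 15 clock genes 9 rose and 2 fell (1 without any 1 of Day8 replicates 1 and 3 and Day4 replicates 1 and 3), with a median of 0.52. Dbp (chromosome 7, 52960617 to 52965573), a PAR-domain output factor, read 114, 107 and 109 TPM at Day8 and 21.9, 22.2 and 20.9 TPM at Day4 (log2 fold change 2.29, SE 0.11, adjusted p = 2.11e-10). The repressors Nr1d1, Nr1d2, Per3 and Bhlhe40 rose by 1.51 ± 0.13, 1.62 ± 0.09, 1.64 ± 0.16 and 1.87 ± 0.07. The lowest log2 fold change in the clock list was -1.41. The hour of harvest is not given in the labels. Of the 12 tested clock genes with a promoter window 4 (33.3%) held CACGTG, namely Bhlhe41, Cry1, Per1 and Tef. It was held by 11.5% of tested genes with a window and 7.15% of all windows. None of Dbp, Nr1d1, Nr1d2 and Per3 held it. This list too was written from general knowledge of the clock, so its share is no test of BMAL1 and CLOCK.

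Most of the change between Day8 and Day4 passed through an intermediate level at Day6. The Day6 mean lay between the other means in 2474 of the 2917 genes that rose (84.8%) and in 2164 of the 2677 that fell (80.8%). The step from Day4 to Day6 called 3253 genes (27.4%), 1822 of them higher and 1431 lower, and that from Day6 to Day8 called 2752 (23.2%), 1305 higher and 1447 lower, 2 comparisons that share the Day6 libraries. Genes whose step from Day6 to Day8 differed from the step from Day4 to Day6 numbered 1138 (9.59% of all genes), 402 whose signed change was larger in the later step (3.39%) and 736 whose signed change was larger in the earlier step (6.20%). This count moved with single Day6 libraries, being 626 without Day6 replicate 1, of which 187 were larger later and 439 larger earlier. Those larger later numbered 259 without Day6 replicate 3, and those larger earlier 472 without Day6 replicate 2. In 203 of the 736 the gene rose to Day6 and then fell, each step being called, and in 79 of the 402 it fell and then rose.

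Many lipid, energy and division genes had the larger signed change in the earlier step. Of the 15 lipolysis genes 14 rose from Day4 to Day6, 9 rose and 2 fell from Day6 to Day8, and 12 had the larger signed change in the earlier step, against 6.20% of all genes. The same held for 34 of 47 mitosis genes, 25 of 46 replication genes and 11 of 21 fatty acid synthesis genes. It also held for 8 of 19 glycolysis genes and 14 of 34 genes of complexes III to V. In the other direction these lists had 0 members, against 3.39% of all genes, a share too low for that 0 to tell much. For mitosis and replication the later fall was the larger move in size. Their list medians were 0.34 and 0.15 in the earlier step and -0.58 and -0.46 in the later. The counts per list of this difference between steps were not repeated with other settings or with libraries left out. Slc2a4 rose by 1.98 ± 0.14 to Day6 and Adipoq by 1.22 ± 0.15, while the later step was not called for Slc2a4 (0.37 ± 0.14, adjusted p = 0.0693) or for Adipoq (0.18 ± 0.15, adjusted p = 0.438). Fabp4, Retn, Pnpla2 and Gpd1, a glycerol phosphate dehydrogenase, rose to Day6 and then fell. Retn (chromosome 8, 3655770 to 3659818), resistin, read 832, 882 and 840.1 TPM at Day4, 1736, 1653 and 1673 TPM at Day6 and 1290, 1099 and 1356 TPM at Day8. Glucocorticoid genes were not alike in timing, and Fkbp5 and Tsc22d3 fell by 2.37 and 2.38 in the earlier step and by 1.47 and 1.08 in the later (adjusted p of the difference 0.000836 and 0.00104). Lcn2 was not called in the earlier step (-0.20) and fell by 1.56 in the later (adjusted p of the difference 0.00197). Hmox1 and Mmp11 rose more in the later step (1.87 ± 0.09 against 1.24 ± 0.09 earlier, and 1.52 ± 0.10 against 0.43 ± 0.10 earlier). Clock genes had 6 of 15 higher in the earlier step, against 15.3% of all genes. In the later step 7 were higher and 1 lower, against 11.0% and 12.2% of all genes. A difference between steps was called in 0 of the 15, against 9.59% of all genes, which does not show that the steps were alike.

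Markers of fat cells were measured at Day8 and Day4, and few macrophage or endothelial markers passed the filter. Beside Fabp4 and Lpl, Adipoq stood at 3594 ± 65.9 TPM at Day8 and 1364 ± 57.6 TPM at Day4. Plin1 stood at 570.3 ± 46.1 TPM at Day8 and 228 ± 14.3 TPM at Day4. Cd36, Cfd, Retn, Lipe and Slc2a4 also rose, whereas the fat cell marker Cidec fell (-0.67), a call lost with a pseudocount of 0.1. Of 14 macrophage markers 3 were tested, 1 rose (Cd68 by 0.88 ± 0.23, with 2 rising without Day4 replicate 1) and 7 were listed at 0 in all 9 libraries. The summed level of the macrophage list was 10.5 to 11.5 TPM at Day8 and 6.57 to 10.6 TPM at Day4. Of 10 endothelial markers 0 were tested, 5 were listed at 0 in all 9 libraries, and their sum was 1.02 to 1.08 TPM at Day8 and 0.727 to 1.03 TPM at Day4.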

How the data were processed

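Polyadenylated RNA of 3T3-L1 cells was extracted with TRIzol and sequenced from NEBNext Ultra II libraries, per the labels' protocols. The authors deposited 1 table of TPM per library with gene positions on mm9. FastQC, cutadapt, HISAT2, StringTie and mm9 are named in the submitters' processing notes, without versions, order or a strand setting, so overlapping and antisense genes may share reads. TPM keeps no depth, and listed values summed to 869497 to 880273 per library.

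Of 25209 genes, 12 recorded at another locus in 1 table were left out. The Day8 and Day4 libraries were filtered at 1 TPM in 3 of 6, which left 11871 genes. Values were analysed as log2(TPM + 1) with limma 3.58.1 in R 4.3.3 (trend and robust options, means of the 6 groups over 18 libraries, Benjamini-Hochberg adjustment over all genes tested), and tables and plots were made with Python 3.11.15, pandas 2.3.3, numpy 2.4.6 and matplotlib 3.10.9. The code was tested on simulated data. The contrasts were Day8 with Day4, Day6 with Day4, Day8 with Day6, and the later step minus the earlier one.

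Gene lists and panel were chosen with earlier results of these data known. The text names that panel, 6 called genes from each end of a contrast (groups apart, mean of 10 TPM or more where higher), up to 5 called members per list by size of change, and 4 from each end of the difference between steps. Ucp1 and Cpt1b of the panel did not pass the filter. A few genes that the rule takes are not reported here. Promoter windows came from RefSeq on GRCm38.p6 and were matched by symbol. Alternatives covered the pseudocount, filter, scaling, libraries fitted, library weights, replicate block and leaving out each library.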

Additional observations from a re-analysis of the deposited data

Results flagged for a closer look

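In 15 genes the change from Day6 to Day8 differed from the change from Day4 to Day6 by limma's test of that difference. They are the panel genes whose steps were called in opposite directions and the 8 genes that the naming rule took from this test. Both choices favour genes that pass it, so the adjusted p-values below add no support. Among all genes tested, 1138 passed. The values below are the later step minus the earlier step on the log2 scale, each with limma's adjusted p.

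Pnpla2, Fabp4, Gpd1 and Retn, chosen because their steps were called in opposite directions, rose to Day6 and then fell. The difference was -0.765 for the lipase gene Pnpla2 (adjusted p = 0.000518), -1.022 for the fatty acid carrier Fabp4 (adjusted p = 0.000481), -1.126 for the dehydrogenase Gpd1 (adjusted p = 0.000197) and -1.425 for resistin, Retn (adjusted p = 0.00022). Mcm2 and Mki67 did the same, with -0.595 for the helicase subunit Mcm2 (adjusted p = 0.000681) and -1.849 for Mki67 (adjusted p = 0.000219). The chemokine Ccl2 followed that course at -1.768 (adjusted p = 0.000197), with 5.52, 6.54 and 6.36 TPM at Day4, 16.6, 12.8 and 15.2 TPM at Day6 and 7.86, 9.24 and 10.9 TPM at Day8.

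The carbonic anhydrase Car3, abundant in fat and muscle, rose by 2.64 to Day6 and stayed there (-0.12 in the later step), a difference of -2.768 (adjusted p = 2.15e-05). Its neighbour Car2 had -4.234 (adjusted p = 0.0168), Tmem251 -3.974 (adjusted p = 0.0185) and Ugt1a7c -3.362 (adjusted p = 0.0327). These 3 genes varied widely between replicates, Ugt1a7c reading 9.41, 62.8 and 21.4 TPM at Day6 and Tmem251 being listed at 0 in 2 of the 3 Day8 libraries. Their calls were lost in several alternatives. That of Ugt1a7c was lost in 6, with -1.985 without Day6 replicate 2, -2.986 without Day8 replicate 1, -3.099 without Day4 replicate 1, -3.499 without Day6 replicate 3, -2.58 with array weights and -3.362 in a fit on the libraries compared alone. That of Tmem251 was lost in 3, with -3.927 without Day6 replicate 1, -3.606 without Day6 replicate 2 and -3.974 in that fit. That of Car2 was lost in 4, with -4.205 without Day6 replicate 1, -3.976 without Day6 replicate 3, -4.234 in that fit and -5.538 with a pseudocount of 0.1.

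Other genes were lowest at Day6 or had fallen by then. The difference was 3.346 for the acute phase gene Saa3 (adjusted p = 4.73e-05), which read 32.3, 27.8 and 27.9 TPM at Day4, 3.76, 4.54 and 2.40 TPM at Day6 and 8.90, 5.13 and 4.01 TPM at Day8. It was 2.071 for the RNA-binding protein gene Hnrnpa1 (adjusted p = 0.00227), 1.957 for the splicing kinase gene Clk4 (adjusted p = 0.000606) and 1.877 for Tent5b (adjusted p = 0.000522). Clk4 lay between 15.7 and 17.7 TPM in all Day6 libraries and between 27.0 and 41.1 TPM in all Day4 and Day8 libraries.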

How the results depend on the processing

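Adding a log2 fold change of at least 1 to the call left 898 genes between Day8 and Day4 (569 higher, 329 lower), 362 between Day6 and Day4 (247 and 115), 190 between Day8 and Day6 (99 and 91) and 313 for the difference between steps (84 and 229). Fitted on the compared libraries alone, Day8 against Day6 called 1132 genes (555 and 577) and the difference between steps 460 (121 and 339), where fewer libraries estimate the spread. Leaving out 1 library gave 4988 to 5342 calls between Day8 and Day4 (2585 to 2895 higher, 2348 to 2587 lower), 2597 to 2918 between Day6 and Day4, 2188 to 2615 between Day8 and Day6, and 626 to 1443 for the difference between steps (187 to 516 larger later, 439 to 927 larger earlier). All other alternatives for Day8 against Day4 gave 4320 calls (fit on the 6 libraries alone) to 5973 (quantile normalization), and median-ratio and quantile scaling moved the median of all genes to 0.002 and -0.027. Of 5019 alternatives over 296 named results, 4777 kept direction and call, 236 lost the call, 2 gained it and 4 turned sign or came to 0. The 4 were Fabp4 under quantile normalization (-0.0, since it ranks first in every library and so becomes equal by construction) and the uncalled Col4a1 (0.099 under quantile normalization, and -0.15 to 0.052 when 1 library was left out). Of 1666 alternatives over list counts between Day8 and Day4, 141 moved a count by over 1.5 times. List counts of the other contrasts were not repeated under the alternatives. Replicate numbers did not pair the Day8 with the Day4 libraries, since deviations from group means of same-numbered libraries correlated at -0.002, -0.029 and -0.061. The same correlations were -0.023, -0.079 and -0.005 for Day6 with Day4, and -0.02, 0.127 and 0.07 for Day8 with Day6. With the replicate number as a block 5545 genes were called between Day8 and Day4 (2906 higher, 2639 lower). Depth is unknown, so counting error of low genes could not be given.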

Other observations

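Genes used as markers of other tissues were mostly below the filter, and those that passed did not share a direction. Of 10 skeletal muscle markers 6 were listed at 0 in all 9 libraries and 2 were tested, of which Des, the muscle intermediate filament desmin, rose to 44.7, 37.1 and 39.9 TPM at Day8 against 13.9, 14.2 and 13.8 TPM at Day4 (log2 fold change 1.47, SE 0.15, adjusted p = 6.67e-07). Of 11 bone and cartilage markers 3 were tested, 2 higher and 1 lower at Day8, and the summed level of the list was 416 to 499 TPM at Day8 and 75.9 to 93.4 TPM at Day4. One of them was Spp1, osteopontin, with 406, 488 and 474 TPM at Day8 and 68.9, 83.7 and 76.4 TPM at Day4 (log2 fold change 2.56, SE 0.12, adjusted p = 1.85e-10). Comp, a cartilage matrix protein, fell by 0.47 ± 0.14 (adjusted p = 0.0104), a call lost without Day4 replicate 2 (-0.39) and with a pseudocount of 0.1 (-0.57). Of 9 epithelial markers 6 were tested, 2 higher and 2 lower, and 1 lower without Day8 replicate 1 or without Day4 replicate 1. The simple-epithelium keratin Krt18 read 8.57, 7.17 and 7.31 TPM at Day8 and 1.26, 2.59 and 1.17 TPM at Day4 (log2 fold change 1.74, SE 0.17, adjusted p = 4.86e-07). The keratin Krt14 read 0, 0 and 0.255 TPM at Day8 and 1.56, 2.23 and 1.29 TPM at Day4 (log2 fold change -1.30, SE 0.25, adjusted p = 0.000428; -3.52 with a pseudocount of 0.1). Krt10 fell by 0.43 ± 0.14 (adjusted p = 0.0205), a call lost without Day8 replicate 1 (-0.38), without Day4 replicate 1 (-0.35) and with array weights (-0.41). Genes of caveolae and EHD proteins, which shape the fat cell membrane, had 2 of 10 higher and 5 lower.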
